A study of Mus musculus with 240 samples.

Results

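Voltage-gated sodium and calcium channels are described here in oligodendrocyte precursor cells (OPCs) of the mouse brain and in brain tumours. The genes were chosen by name, with no measured value in the rule, though earlier results of these data were known. They are protein-coding genes for the pore-forming alpha subunits of sodium channels (Scn1a to Scn11a, 10 genes) and their beta subunits (4 genes). For calcium channels they cover the pore-forming subunits (Cacna1, 10 genes) and the auxiliary subunits alpha2delta (Cacna2d, 4 genes), beta (Cacnb, 4 genes) and gamma (Cacng, 8 genes). In all they number 40 of the 34623 genes in the table. Cells were taken from frozen sections by laser capture, from mice labelled Trp53-/- Nf1-/- (CKO, both tumour suppressor genes deleted) or wild-type (WT), and time is counted in days from the start of tamoxifen (dpi). Bulk samples came from 7 CKO and 5 WT animals at 12 dpi, 7 CKO and 5 WT animals at 90 dpi, and 6 WT animals and 7 tumours of the CKO genotype at 150 dpi. Another 192 libraries of 10 cells each came from CKO mice only, 112 captured as separate groups of cells (10-cell) and 80 (pool-and-split) as aliquots of a larger pool, at 12 and 90 dpi. The labels call the bulk samples of all 6 groups tdT positive, and the driver of the Cre recombinase is not given in the sources used here. The tumour samples are labelled as tumour cells and not as OPCs.

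Sodium channels open on depolarisation and carry the upstroke of the action potential, with beta subunits that tune gating and hold the channel at the membrane. Calcium channels turn depolarisation into calcium entry. Their alpha2delta and beta subunits carry the pore to the surface, and most of their gamma relatives act as transmembrane AMPA receptor regulatory proteins (TARPs), which traffic and gate glutamate receptors. OPCs are known for carrying such channels and for receiving synapses from neurons, and mature neurons express most of these genes at high levels.

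Bulk libraries held 0.0937 to 23.2 M counts (M, 1000000; median 10.0), 10-cell libraries 1.64 to 6.49 M counts and pool-and-split libraries 1.91 to 5.16 M counts. Levels are given as CPM, the counts divided by the animal's scaled total and multiplied by 1000000. Nf1 averaged 196 CPM in CKO and 300 CPM in WT animals at 90 dpi, and 214 CPM in tumours against 301 CPM in WT animals at 150 dpi. Trp53 averaged 27.2 and 23.5 CPM at 90 dpi, and 44.3 CPM in tumours against 26.0 CPM in WT animals at 150 dpi. The counts were per gene, so reads from outside a deleted part are included. One animal stood apart: replicate 2 of the CKO group at 90 dpi had 2 libraries, and one of them detected 13265 genes and 30 of the 40 channel genes where the other detected 17957 and 38. In the deviating library Scn7a was at 37.9 CPM of its own total against 2.27 CPM in its partner.

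In the tumours most channel genes fell. Of the 36 genes with enough counts to test, 22 were lower in tumours than in WT animals at 150 dpi and 3 were higher at an adjusted p under 0.05 (edgeR quasi-likelihood F test, Benjamini-Hochberg over 16349 genes). The same calls were made for 21.9% (lower) and 24.3% (higher) of all tested genes. The median log2 change of the 36 genes was -1.86, against 0.06 over all tested genes. Every tumour lay below every WT animal in 20 of the 36 channel genes, each among the 22 lower ones, and in 8.96% of all tested genes. Against CKO animals at 90 dpi 24 genes were lower and 2 higher, beside 22.6% and 26.4% of all genes, with a median of -2.16 against 0.12. Both comparisons use the same 7 tumours, and in the second time and tumour state cannot be told apart. Scn11a, Scn4a, Scn4b and Cacng1 had too few counts to test, and averaged at most 1.02 CPM in any group.

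Markers of other cells moved beside these falls. Of 12 neuron markers 11 fell against WT and none was at 0 in a whole group. Their summed level ran from 7515 to 15598 CPM in the 30 animals without tumours and from 844 to 2873 CPM in the tumours. Of 12 OPC markers 10 rose, with sums of 1097 to 2199 CPM without tumours and 2753 to 5776 CPM in tumours. Of 10 microglia markers 9 rose, from sums of 118 to 251 CPM to sums of 339 to 1172 CPM. Of 10 oligodendrocyte markers 6 fell and 1 rose, with a median log2 change of -1.85 and sums of 1560 to 4871 CPM without tumours and 396 to 1651 CPM in tumours. Of 10 astrocyte markers 5 rose and 3 fell, and of 10 endothelial markers 3 fell. The part of these cells in the channel genes' changes was not tested. In such bulk samples fewer cells of a type and less RNA per cell cannot be told apart.

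**Figure D1:**
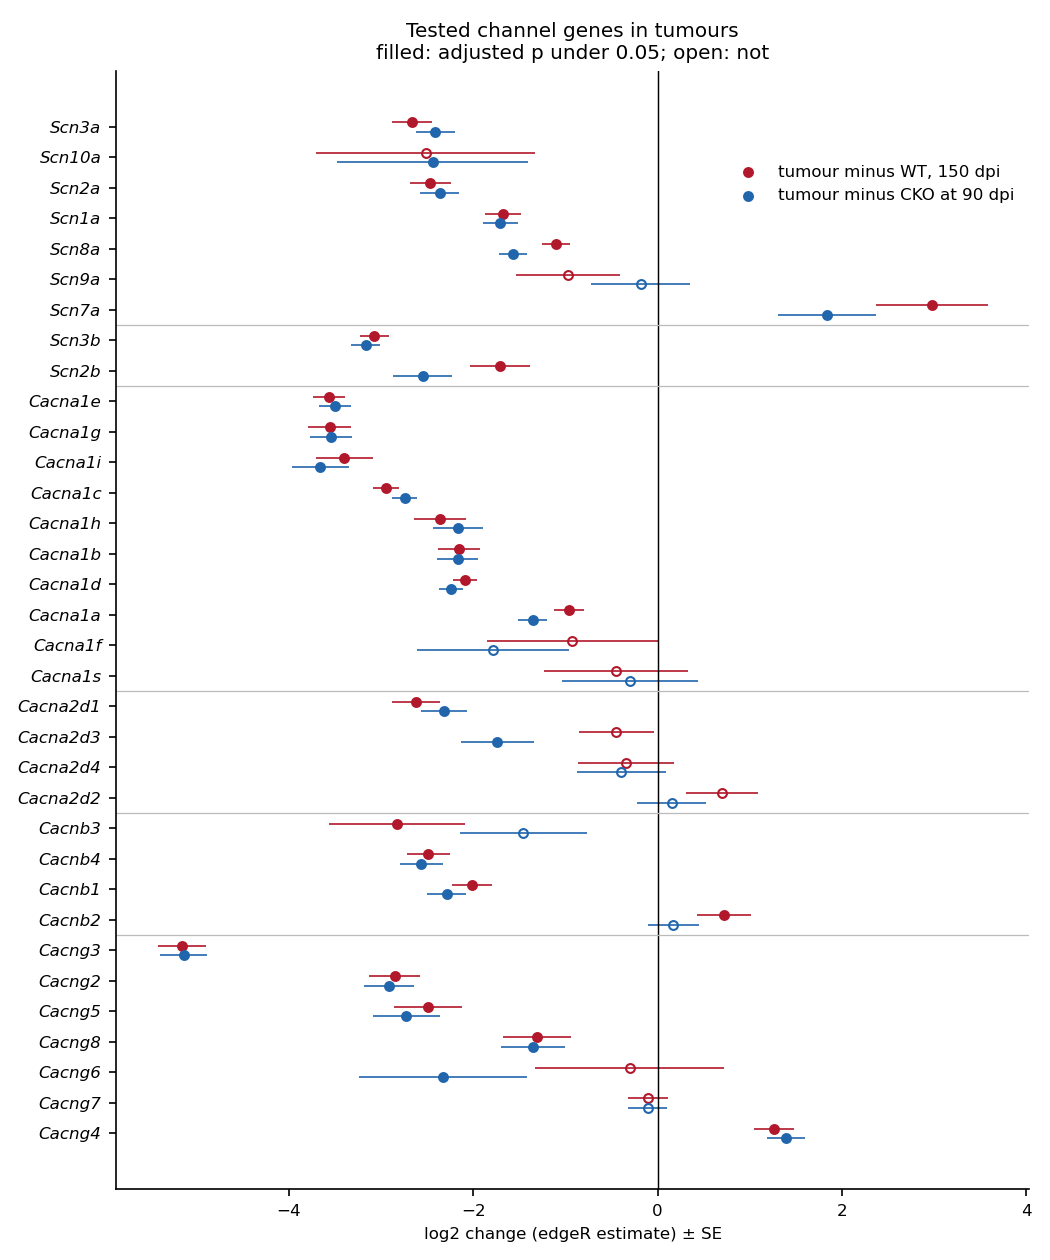
Log2 change of 34 of the 36 tested channel genes in tumours (7 animals) against WT animals at 150 dpi (6, red) and against CKO animals at 90 dpi (7, blue), with bars of ± 1 standard error from edgeR. Filled points have an adjusted p under 0.05. Cacng3 lies farthest to the left in both comparisons and Scn7a farthest to the right, and grey lines separate the 6 classes of subunit.

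The extremes were Scn7a and Cacng3. Scn7a encodes an atypical sodium channel that responds to extracellular sodium, and Cacng3 encodes TARP gamma-3.

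RefSeq windows around the gene start (250 bases before, 50 after, GRCm38.p6) were found for 30 of the 40 genes, 41 windows in all. Of these 13 (31.7%) held the E-box CAGCTG, a site type read by basic helix-loop-helix factors, against 16.3% of 32851 windows of all genes. These 13 windows belong to 12 genes, and the motif reads the same on both strands. It was one of 6 short motifs searched on both strands, with these windows in view. Of the others, GGGCGG (GC box) was in 39.0% of the channel windows and 35.7% of all, AGCACC in 12.2% and 16.2%, GGACAG in 17.1% and 22.2%, TGACG in 14.6% and 20.8%, and TATAAA in 4.88% and 13.6%. A match is a description of these letters and not of binding.

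Sodium channel alpha subunits split by gene. Scn1a, Scn2a, Scn3a and Scn8a, the brain channels, fell in tumours, and Scn7a rose. Of the 8 tested alpha genes 4 fell and 1 rose against WT. Scn3a (chr2:65457118-65567627) encodes a channel best known from the developing brain. It ran from 194 to 413 CPM (median 263) in the 30 animals without tumours, and from 18.9 to 72.8 CPM (median 58.1) in the tumours. No tumour reached the lowest of the other animals, and the log2 change against WT was -2.66 ± 0.22 (SE, n = 7 and 6; adjusted p = 1.78e-12 by edgeR). Scn2a, Scn1a and Scn8a changed by -2.46, -1.67 and -1.10 against WT. Their mean levels in tumours were 66.0, 43.8 and 48.4 CPM, against 369, 140 and 104 CPM in WT animals of 150 dpi.

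Scn7a (chr2:66673425-66784914) went the other way. It was at 1.32, 2.95 and 4.29 CPM (lowest, median, highest) in WT animals of 150 dpi and at 6.73, 12.5 and 62.7 CPM in the tumours. Every tumour lay above every WT animal of that age, and the tumours themselves spread over a wide range. The log2 change was 2.97 ± 0.61 (SE, n = 7 and 6; edgeR adjusted p = 0.000120), a 7.86-fold rise. Against CKO animals at 90 dpi it was 1.84 (edgeR adjusted p = 0.00396), where the highest CKO value, 23.3 CPM, came from the animal with the deviating library and lay above 5 of the 7 tumours. Without that animal the log2 change was 2.83 (edgeR adjusted p = 1.98e-05). Per kilobase of exon, Scn7a made up 0.530% ± 0.255 (SD, n = 6) of the summed alpha subunit level in WT animals of 150 dpi and 15.1% ± 11.6 (SD, n = 7) in tumours, where the total was 19.7 against 74.4 CPM per kb. Scn9a and Scn10a averaged at most 8.12 CPM in any group and were not called against WT, with log2 changes of -0.97 and -2.52. Scn10a passed the test against CKO at 90 dpi, by -2.44 (edgeR adjusted p = 0.0493), at 0.11 CPM in tumours and 0.83 CPM in that group, and lost the call in 13 alternatives (edgeR or DESeq2 adjusted p up to 0.193).

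Neighbouring alpha subunit genes went different ways. Scn3a, Scn2a, Scn1a, Scn9a and Scn7a lie in this order along chromosome 2, within chr2:65457118-66784914 (GRCm38). The first 3 fell, Scn9a did not pass, and Scn7a at the end of the row rose.

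Among the beta subunits, which flank the pore and contact adhesion molecules, 2 of 3 tested genes fell. Scn3b (chr9:40269217-40291618) was at 162, 196 and 223 CPM (lowest, median, highest) in WT animals of 150 dpi and at 15.0, 21.3 and 33.9 CPM in tumours. The groups lay far apart, with a log2 change of -3.07 ± 0.16 (SE, n = 7 and 6; edgeR adjusted p = 8.09e-18). Scn2b changed by -1.71, from 27.2 to 8.58 CPM on average.

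**Figure D2:**
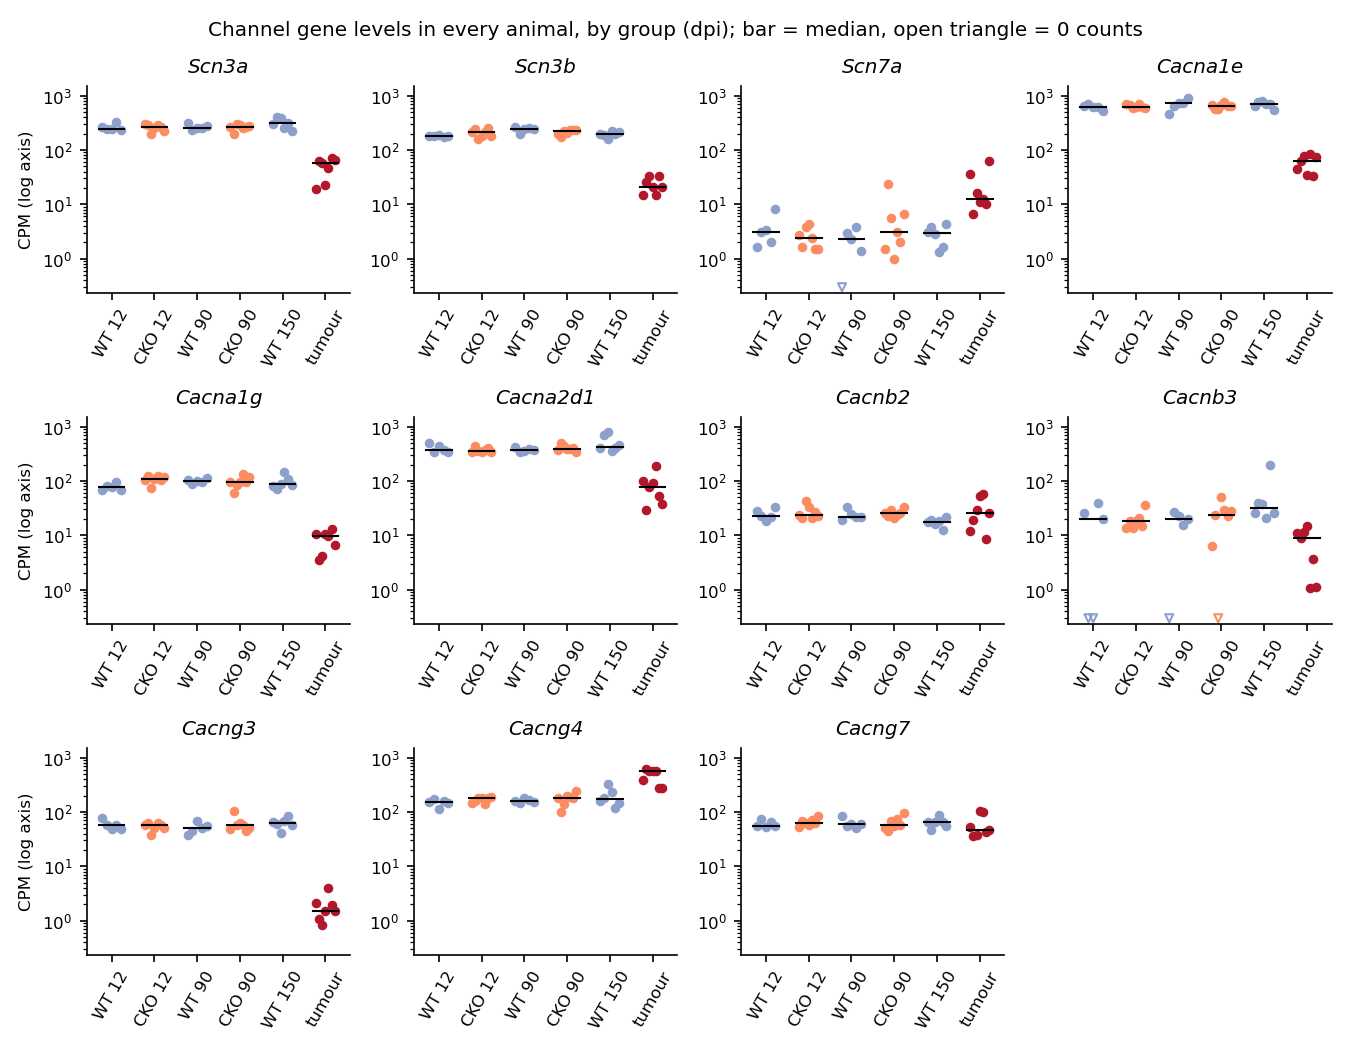
CPM (log axis) of 11 channel genes in each of the 37 animals, by group, with a bar at the group's median and open triangles at the axis for animals with 0 counts. Tumours lie below the other groups for Scn3a, Scn3b, Cacna1e, Cacna1g, Cacna2d1 and Cacng3, above most other animals for Scn7a and Cacng4, and among them for Cacng7.

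Genes of all 3 families of calcium channel pore fell. The families are the high-voltage P/Q-, N- and R-type channels (Cacna1a, Cacna1b, Cacna1e), the L-type channels (Cacna1c, Cacna1d, Cacna1f, Cacna1s) and the low-voltage T-type channels (Cacna1g, Cacna1h, Cacna1i). Of the 10 genes 8 fell against WT and none rose, with the retinal Cacna1f and the muscle gene Cacna1s, at most 1.99 CPM in any group, not called. Cacna1e (chr1:154390731-154884501), the R-type pore, had the highest level per kilobase of the 10 in WT animals of 150 dpi, 27.5 CPM per kb. It was at 533, 701 and 810 CPM (lowest, median, highest) in these animals and at 33.8, 61.7 and 83.5 CPM in tumours. No value of one group came near the other, and the log2 change was -3.56 ± 0.18 (SE, n = 7 and 6; edgeR adjusted p = 1.99e-18), an 11.8-fold fall. Cacna1g (chr11:94408391-94474198), a T-type pore, was at 69.9, 86.9 and 145 CPM in WT animals and 3.50, 9.68 and 12.9 CPM in tumours. Its log2 change was -3.56 ± 0.23 (SE; edgeR adjusted p = 3.93e-15). The other T-type genes, Cacna1i and Cacna1h, changed by -3.40 and -2.36. The main L-type pores of brain, Cacna1c and Cacna1d, changed by -2.94 and -2.09, and the N-type Cacna1b by -2.16. Cacna1a, the P/Q-type pore, had the smallest fall of the 8, -0.96, from 60.5 to 30.4 CPM on average. The summed level of the 10 genes was 104 ± 12.7 CPM per kb (SD, n = 6) in WT animals of 150 dpi and 16.1 ± 2.32 (SD, n = 7) in tumours.

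Of the alpha2delta subunits, which traffic the pore and bind gabapentin in the case of the first and second, 1 of 4 fell against WT. Cacna2d1 (chr5:15934691-16374511) was at 350, 427 and 798 CPM (lowest, median, highest) in WT animals of 150 dpi and at 29.2, 76.5 and 191 CPM in tumours. The groups did not overlap, and the log2 change was -2.62 ± 0.26 (SE, n = 7 and 6; edgeR adjusted p = 1.76e-10). Cacna2d3 passed the test against CKO at 90 dpi, by -1.74, and not against WT of 150 dpi, by -0.45. In the CKO group the animal with the deviating library was at 101 CPM and the other 6 at 8.84 to 16.4 CPM, and without it the log2 change was -0.71 (edgeR adjusted p = 0.0152). Cacna2d2 and Cacna2d4 were at 11.2 and 2.31 CPM in tumours, with log2 changes of 0.70 and -0.34 against WT that were not called.

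The 4 beta subunits, which dock on the intracellular face of the pore, were all called against WT, 3 lower and 1 higher. Cacnb4 and Cacnb1 changed by -2.49 and -2.01. Cacnb4 made up most of the summed beta level per kilobase, 72.8% in WT animals of 150 dpi and 60.5% in tumours. Cacnb3 (chr15:98632220-98644530 in the table) was at 20.6, 32.1 and 201 CPM (lowest, median, highest) in WT animals of 150 dpi and at 1.08, 9.02 and 14.8 CPM in tumours. Its log2 change was -2.83 ± 0.74 (SE; edgeR adjusted p = 0.00181), and -2.12 (edgeR adjusted p = 0.0200) without WT replicate 5, the animal at 201 CPM. Against CKO at 90 dpi Cacnb3 was not called (-1.46, edgeR adjusted p = 0.0800), with 0 counts in 1 CKO animal of that group. Over the 30 animals without tumours Cacnb3 ran from 0 to 201 CPM (median 21.5), so some of them lay below every tumour. WT replicates 2 and 3 of 12 dpi and replicate 1 of 90 dpi also had 0 counts. The last of these had 0.0937 M counts in all, too few for its 0 to say much. Cacnb2 (chr2:14603088-14987908) was at 12.4, 17.9 and 21.9 CPM in WT animals and at 8.52, 26.3 and 58.1 CPM in tumours. The tumours lay on both sides of the WT range, and the log2 change of 0.72 ± 0.29 (SE; edgeR adjusted p = 0.0396) was no longer called without tumour replicate 4 (0.55, edgeR adjusted p = 0.113) or 5 (0.50, edgeR adjusted p = 0.137). It also lost the call without any one of WT replicates 1, 2, 3 or 5 (0.65 to 0.74, edgeR adjusted p = 0.0520 to 0.0871). Against CKO at 90 dpi Cacnb2 was not called (0.17, edgeR adjusted p = 0.644). Exons of Cacnb2 overlap those of the pseudogene Gm10849 on the opposite strand over 618 bases, and counts of the 2 could not be told apart without strand. Other channel genes have such overlaps too, among them Cacna1d with Chdh (589 bases), Cacna1h with Tpsg1 (158 bases) and Cacnb4 with A430018G15Rik (1433 bases).

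The gamma genes went different ways. Of 7 tested genes 4 fell and 1 rose against WT. The summed level was 158 ± 26.9 CPM per kb (SD, n = 6) in WT animals of 150 dpi and 166 ± 47.8 (SD, n = 7) in tumours. Cacng3 (chr7:122670492-122769393) was at 41.9, 62.0 and 85.5 CPM (lowest, median, highest) in these WT animals and at 0.848, 1.54 and 4.09 CPM in tumours. It ran from 37.9 to 106 CPM over all 30 animals without tumours, so the highest tumour stayed far below the lowest of them. The log2 change was -5.17 ± 0.26 (SE, n = 7 and 6; edgeR adjusted p = 3.51e-18), a 35.9-fold fall. Cacng2, the founding TARP known as stargazin, changed by -2.85. Cacng5, an atypical TARP, changed by -2.49, and Cacng8, the TARP best known from hippocampus, by -1.31, a call that was lost when the compared groups alone were fitted (-1.18, edgeR adjusted p = 0.0877).

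Cacng4 (chr11:107732357-107794557), TARP gamma-4, was at 116, 171 and 333 CPM (lowest, median, highest) in WT animals of 150 dpi and at 274, 569 and 605 CPM in tumours. One WT animal lay above the 2 lowest tumours. The log2 change was 1.26 ± 0.21 (SE, n = 7 and 6; edgeR adjusted p = 7.55e-06), a 2.40-fold rise, and against CKO at 90 dpi it was 1.39 (edgeR adjusted p = 6.20e-07), with every tumour above every CKO animal. The median log2 change of the 12 OPC markers against WT was 1.47. Cacng4 made up 34.3% ± 9.94 (SD, n = 6) of the summed gamma level per kilobase in WT animals of 150 dpi and 77.8% ± 8.42 (SD, n = 7) in tumours, from 65.5% to 88.1%. Cacng3 went from 14.7% to 0.430% and Cacng5 from 26.6% to 5.00% on average. Cacng7, another atypical TARP, was at 45.8, 65.0 and 89.2 CPM in WT animals and at 35.6, 47.2 and 104 CPM in tumours. Its log2 change was -0.10 ± 0.22 (SE; edgeR adjusted p = 0.737), and under relative log expression (RLE) scaling it was 0.05. That scaling moved the median of all genes against WT from 0.06 to 0.22, and Cacng4 rose and Cacng3 fell under both. Cacng6 was at most 1.37 CPM in any group and was not called against WT. It passed against CKO at 90 dpi, by -2.33 (edgeR adjusted p = 0.0333), at 0.28 and 0.74 CPM, and lost the call in 10 alternatives (edgeR or DESeq2 adjusted p up to 0.0827).

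Neighbouring gamma genes also went different ways. Cacng4 and Cacng5 lie side by side with Cacng1 within chr11:107703218-107915055, and Cacng4 rose where Cacng5 fell. Cacng7, Cacng8 and Cacng6 lie within chr7:3332955-3435667, and of these Cacng8 alone was called against WT, with the limit given above.

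**Figure D3:**
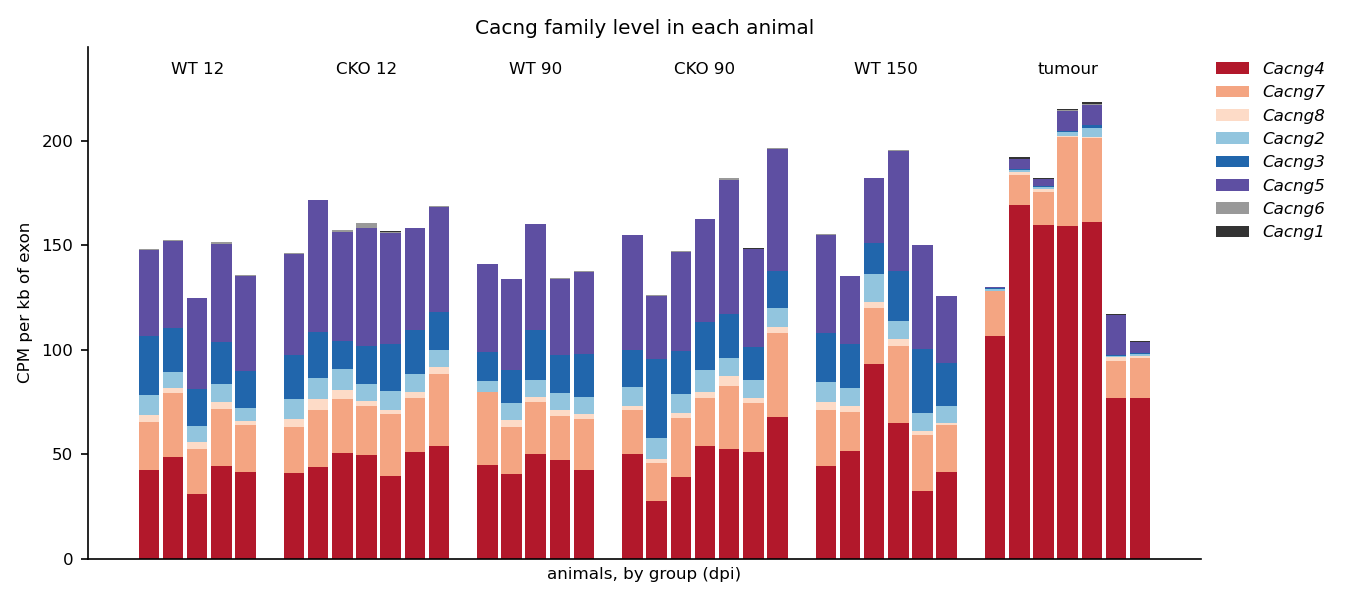
Level of the 8 gamma genes in CPM per kilobase of exon, stacked for each of the 37 animals and grouped by genotype and time in dpi. Cacng4 (red) fills 65.5% to 88.1% of each tumour's bar, and Cacng3 (dark blue) and Cacng5 (purple) fill most of the rest of the other animals' bars above Cacng7 but little of the tumours'.

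Per kilobase, Cacng4 was first of the 40 genes in both groups of 150 dpi, at 54.7 CPM per kb in WT animals and 130 CPM per kb in tumours. In WT animals Cacnb4 (52.7), Cacng5 (41.7), Cacna2d1 (41.7) and Scn3b (36.1 CPM per kb) followed. The first 4 of these levels were within the spread between animals of one another. In tumours Cacng7 came next at 24.5 CPM per kb, and Cacnb4 was at 9.48 CPM per kb.

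The tumours differed among themselves. Tumour replicate 5 had the highest neuron marker sum, 2873 CPM, and the highest Cacng3, Cacna1e, Cacna2d1 and Cacnb2, at 4.09, 83.5, 191 and 58.1 CPM. It was not high in Scn3b, 15.1 CPM, where replicate 1 with the lowest neuron sum (844 CPM) was at 15.0 CPM. Replicate 7 had the highest Scn7a, 62.7 CPM, and the highest microglia sum, 1172 CPM, but replicate 1, second in Scn7a at 36.8 CPM, had a microglia sum of 678 CPM below the 941 CPM of replicate 4, whose Scn7a was 11.0 CPM. Cacng4 was lowest in replicates 6 and 7, both at 274 CPM, which also had the lowest OPC marker sums, 2753 and 3186 CPM. These are single values, and a link between channel levels and marker sums among the tumours was not tested.

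The tumour difference from WT at 150 dpi differed from the CKO difference from WT at 90 dpi for 23 of the 36 genes. Of these 22 were lower and 1 higher, beside 15.8% (lower) and 14.2% (higher) of all tested genes. This contrast, called the difference in genotype effect, sets tumour minus WT at 150 dpi against CKO minus WT at 90 dpi. All CKO samples of 150 dpi were tumours, so genotype, tumour state and time cannot be told apart in it. It uses the same tumours and WT animals of 150 dpi as the first comparison, so its counts are not an independent result. Cacng4 was the one higher gene (1.14 ± 0.30, SE; edgeR adjusted p = 0.00396), and Cacng3 had the most negative value (-5.37 ± 0.36, SE; edgeR adjusted p = 3.50e-14). Among the lower genes, the calls of Cacng8 and Cacnb3 were lost in 14 and 10 alternatives (adjusted p up to 0.0966 and 0.111 over the edgeR and DESeq2 fits). Scn7a did not pass (1.72, edgeR adjusted p = 0.119), but passed without the CKO animal of the deviating library (2.68, edgeR adjusted p = 0.00493). One of the 5 WT animals of 90 dpi had 0.0937 M counts, and without it 23 genes were again called.

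Before tumours, no channel gene passed a test. Between CKO and WT animals 0 of 36 were called at 12 dpi, beside 0.0183% of all tested genes, and 0 at 90 dpi, beside 0.0489%. Nf1, itself deleted in CKO mice, was also not called, at -0.67 and -0.62 (edgeR adjusted p = 0.0918 and 0.145). The lack of a call thus does not show that a gene was unchanged. Between 90 and 12 dpi 0 were called in CKO animals (0.0% of all genes) and 0 in WT animals (0.00612%), and 0 between WT animals of 150 and 90 dpi (0.0183%). At an unadjusted p under 0.05 by edgeR these 5 comparisons had 3, 2, 2, 1 and 1 channel genes of 36, where 4.85%, 5.20%, 4.26%, 4.86% and 8.26% of all tested genes passed the same threshold, and DESeq2 also called 0 in each. The largest of these was Scn9a in CKO against WT at 12 dpi, with a log2 difference of -1.87 ± 0.59 (SE; edgeR adjusted p = 0.765), at 2.21 against 8.12 CPM. Cacna1a was among the unadjusted genes in both genotype comparisons, by 0.38 at 12 dpi and 0.38 at 90 dpi (edgeR adjusted p = 0.997 and 0.920), with 73.6 against 57.5 CPM and 77.5 against 56.9 CPM. Cacng4 averaged 168 and 175 CPM in CKO and 149 and 162 CPM in WT animals at 12 and 90 dpi. Cacng3 averaged 54.3 and 61.2 CPM in CKO and 58.3 and 51.2 CPM in WT animals.

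Many partners of these channels fell as well, where 21.9% of all tested genes were called lower against WT and 24.3% higher. Of 12 genes that bind or place sodium channels 9 fell in tumours against WT and 1 rose, with a median log2 change of -1.99. The largest falls were those of Fgf12 (-3.68) and Fgf13 (-3.36), intracellular factors that bind the sodium channel tail, and the rise was that of Cntn1, a contactin (1.39). Of 12 genes that regulate calcium channels or tie them to release sites 6 fell and 1 rose, with a median of -1.02. Stac2 (-3.13), an adaptor of L-type channels, and Rimbp2 (-3.01), which links calcium channels to the active zone, fell most, and Rrad, a small GTPase that binds beta subunits, rose (2.61). Of 11 AMPA receptor subunits and auxiliary proteins, which TARPs serve, 8 fell and 1 rose, with a median of -1.75. Cnih3 (-2.96), a cornichon, and Gria1 (-2.91), a receptor subunit, fell most, and Shisa6, another auxiliary protein, rose (1.34).

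In the libraries of 10 cells most channel genes were found in some libraries and not in others. A 10-cell library held counts for 3 to 28 of the 40 genes at 12 dpi (median 16) and for 9 to 30 at 90 dpi (median 21). A pool-and-split library held counts for 7 to 26 at 12 dpi (median 19) and for 12 to 28 at 90 dpi (median 19.5). Over all 192 libraries 12 genes had a count in more than 75%, 9 in 50% to 75%, 10 in 10% to 50%, 6 in fewer, and 3 in none. Cacng4 was the most widely found, in 181 libraries: 48 of 56 10-cell libraries at 12 dpi, 56 of 56 at 90 dpi, 37 of 40 pool-and-split libraries at 12 dpi and 40 of 40 at 90 dpi. Cacnb4 was in 168, Scn8a in 166, Scn2b in 165, Cacng5 in 162, and Scn2a and Cacna1e in 160 each. Neuron markers were present in these libraries too, with a median sum of 3486 CPM in 10-cell libraries at 12 dpi and 2794 CPM at 90 dpi, against 484 and 798 CPM for OPC markers. A count in a library thus does not show which of its cells held the RNA.

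**Figure D4:**
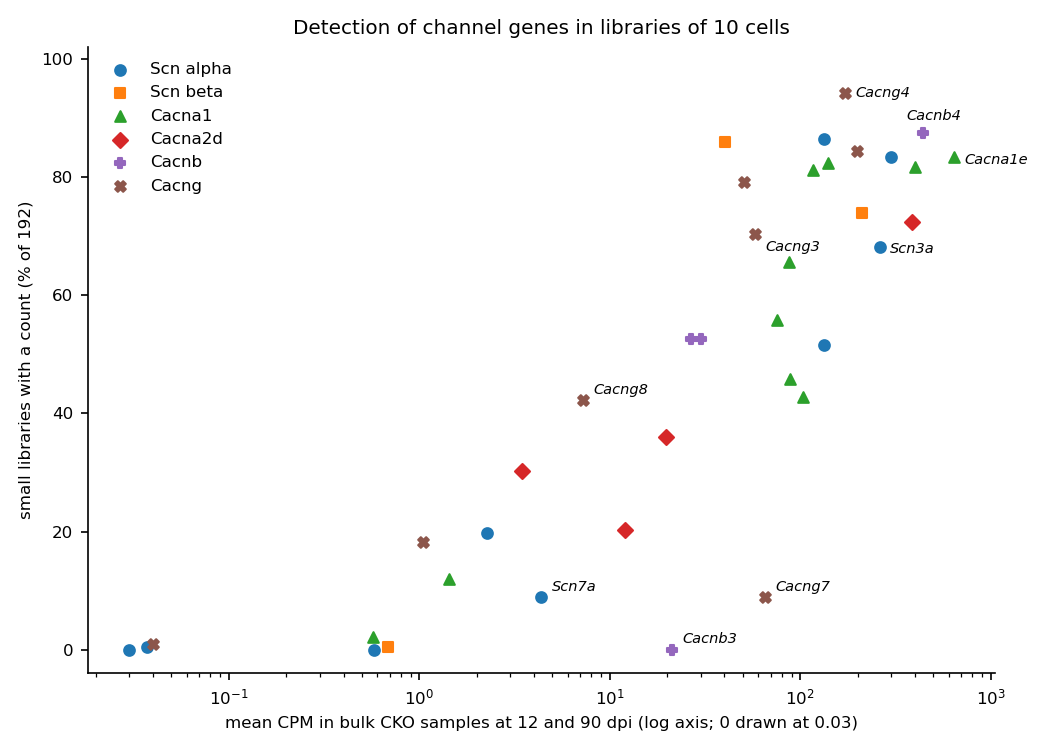
Share of the 192 small libraries with a count (%) for each of 38 of the 40 genes against its mean CPM in the bulk CKO samples of 12 and 90 dpi (14 animals, log axis, 0 drawn at the left end), by class of subunit. Detection tends to be higher for genes with a higher bulk level, and Cacnb3 at 0% and Cacng7 at 8.85% lie below other genes of like bulk level.

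Cacnb3 and Cacng7 went against the bulk level. Cacng7 averaged 64.9 CPM in the bulk CKO samples of 12 and 90 dpi but had a count in 17 of 192 small libraries. Cacng3, at 57.7 CPM in the same bulk samples, had a count in 135. Cacnb3 averaged 21.1 CPM there and had 0 counts in all 192 libraries, where a count of 0 allows up to 0.00386 CPM over the libraries' summed counts (3 counts, counting error only). The small and bulk libraries differ in RNA type and amplification, and the part of that in these 2 genes was not tested. Scn10a and Scn4a were also at 0 in all 192 libraries, with bulk levels of 0.577 and 0 CPM. Scn7a was found in 17 libraries.

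Over time the small libraries showed no called channel gene. With 4 sets of libraries per time (sets share time, sex and a number in the label), 0 of 32 tested genes were called between 90 and 12 dpi in 10-cell sets and 0 of 30 in pool-and-split sets, beside 0.0% of all genes in each. At an unadjusted p under 0.05 by edgeR there were 1 and 3, where 7.13% and 7.83% of all tested genes passed. DESeq2 called Cacna2d1 in the 10-cell sets, -1.39 ± 0.43 (SE; DESeq2 adjusted p = 0.0340), and Scn9a in the pool-and-split sets, 5.02 ± 1.17 (SE; DESeq2 adjusted p = 0.000926). In edgeR these were -1.35 and 5.04, with adjusted p of 0.668 and 0.598. Scn9a was low in the pool-and-split libraries, on average 0.124 CPM at 12 dpi and 4.00 CPM at 90 dpi. At 90 dpi 1 library held 61.9% of the summed Scn9a level. Cacng4 ran from 53.6 to 164 CPM over the means of the 4 10-cell sets at 12 dpi and from 74.8 to 151 CPM at 90 dpi.

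The 10-cell design asks whether a gene varies more between groups of captured cells than between aliquots of a pool. For this the absolute deviation of log2(CPM + 1) from the set's median was compared between both kinds of library. Each of the 56 10-cell and 40 pool-and-split libraries of a time counted as an independent replicate, though libraries of a set may share animals. No channel gene was called at 12 dpi (0 of 17 tested, beside 0.0254% of all genes) or at 90 dpi (0 of 22, beside 0.621%). At an unadjusted p under 0.05 by limma there were 3 and 2, where 9.50% and 13.6% of all tested genes passed. The largest was Cacna1e at 12 dpi, with a mean deviation of 3.37 in 10-cell and 2.16 in pool-and-split libraries (limma adjusted p = 0.253). At 90 dpi it was lower in the 10-cell libraries, 1.98 against 2.77 (limma adjusted p = 0.321). Cacng3 at 90 dpi was at 1.92 against 1.18 (limma adjusted p = 0.247).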

How the data were processed

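The deposited values are expected counts per gene, made by the authors with RSEM and Bowtie2 on GRCm38, per the submitters' processing notes; versions are not given in the sources used here. Bulk libraries came from total RNA by linear T7 amplification and small libraries from polyA RNA by PCR, per the labels' protocols. Counts were rounded. The 11 animals with 2 bulk libraries had them summed, giving 37 animals. Genes passing filterByExpr (minimum count 10, total 15) were scaled by TMM and tested in edgeR 4.0.16 (R 4.3.3) by quasi-likelihood F test, with all 6 groups in 1 fit and sex as covariate. A gene was called below 0.05 after Benjamini-Hochberg adjustment across the tested genes. The small libraries were summed by set. Spread was tested with limma 3.58.1 on genes detected in 50% of libraries, with each library and not each set as a replicate. Lengths are merged exons of GENCODE M21. Of the 40 genes 39 have the same coordinates there, Cacnb3 being the exception. The scripts were tested on simulated data. Alternatives included DESeq2 1.42.0, RLE scaling, other filters and leaving out each animal or set.

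The genes and lists were chosen with earlier results of these data known. Full statistics are given for the largest rise and fall of each class among genes called against WT with a mean of at least 5 CPM over the 37 animals, and for the 3 largest rises and falls of all, and of each partner list the 2 largest rises and falls may be named. Cacng7 and the other genes given values outside this rule were chosen after their values were seen. Results of 2 channel genes are not reported here. The number in the small libraries' labels is not explained, so p-values over sets measure the spread between sets, which may be technical. No pair of channel genes shares a near-identical transcript. Promoter windows and gene names are from RefSeq and the table.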

Additional observations from a re-analysis of the deposited data

Results flagged for a closer look

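Of 60 combinations of a named gene and a bulk group, 8 held 1 animal far from the others. Some of these share an animal and are not independent, so their number is not set against chance. In CKO animals at 90 dpi, replicate 2, whose libraries disagree, was high in Cacng3 (106 CPM, others 44.0 to 63.9) and Scn7a (23.3 CPM, others 0.983 to 6.68) and low in Scn3a (197 CPM, others 257 to 296). Cacnb3 was high in 1 WT animal of 150 dpi (201 CPM, others 20.6 to 38.9) and in 1 CKO animal of 12 dpi (35.5 CPM, others 13.7 to 20.6). Cacng3 was highest in tumour replicate 5 (4.09 CPM, others 0.848 to 2.09). Scn7a was high in 1 WT animal of 12 dpi (8.21 CPM, others 1.65 to 3.35), and Cacna1g was low in 1 CKO animal of 12 dpi (75.9 CPM, others 105 to 125).

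At 150 dpi the genotype effect is tumour minus WT. It differed from that at 90 dpi for 8 of the 10 named genes, by the test of that difference in edgeR. Of all tested genes 15.8% were lower and 14.2% higher in this test. The 10 genes were named by their change in tumours against WT, which is part of this contrast, so their count is not an independent result. The log2 differences were -5.37 for Cacng3, -3.53 for Cacna1g, -3.45 for Cacna1e, -2.95 for Cacnb3 (adjusted p = 0.0339), -2.92 for Scn3b, -2.74 for Cacna2d1, -2.66 for Scn3a and 1.14 for Cacng4. The Cacnb3 call was lost in 10 alternatives, among them without the WT animal at 201 CPM (-2.27, edgeR adjusted p = 0.111).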

How the results depend on the processing

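The number of channel genes called in tumours against WT was 25 and ran from 24 to 26 when each animal was left out in turn, and from 23 to 26 over the other alternatives. Against CKO at 90 dpi it was 26, with 24 to 27 and 22 to 27, and for the difference in genotype effect 23, with 21 to 24 and 22 to 23. The bulk comparisons without tumours stayed at 0 called under every alternative run. For the small libraries DESeq2 called 1 gene in 10-cell sets and 1 in pool-and-split sets, and a pseudocount of 0.1 called 1 gene (Cacna1e, 2.09, limma adjusted p = 0.0222) for spread at 12 dpi; the cause was not tested, and every other alternative run called 0. Over those results' alternatives the adjusted p ran from 0.0340 to 0.892 for Cacna2d1, from 0.000926 to 0.859 for Scn9a and from 0.0222 to 0.618 for Cacna1e.

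Cacng7, called in neither comparison, changed sign. Against WT it was 0.0525 with DESeq2, 0.0533 with RLE scaling and 0.000997 with a mean of at least 10 CPM, and -0.271 to 0.0643 when animals were left out. Against CKO it was 0.0634, 0.0646 and 0.0235, and -0.275 to 0.0410. Cacnb2 against CKO ran from -0.0577 to 0.385 when animals were left out. Of 25 genes called against WT, 2 lost the call under some alternative: Cacnb2 in 9 and Cacng8 with the compared groups alone (-1.18, adjusted p = 0.0877). For the difference in genotype effect Cacnb3 lost its call in 10 alternatives (-2.27, adjusted p = 0.111, without WT replicate 5 of 150 dpi). With sex and number as a replicate block 0 channel genes were called in either kind of set, and sets with the same number did not deviate together (correlations of -0.04 to 0.02). Low counts limit genes under about 5 CPM.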

Other observations

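In the 7 tumours with 2 libraries each, Scn7a was given by both libraries: replicate 7 had 78.3 and 69.3 CPM of each library's total, replicate 1 had 47.5 and 39.3 CPM, and replicate 3 had 32.3 and 8.04 CPM. Cacng4 was at 287 and 302 CPM in replicate 6 and at 319 and 347 CPM in replicate 7, and both libraries of each of the other tumours but 1 were at 493 CPM or above. The exception was replicate 1, at 321 and 540 CPM. Cacnb3 had 0 counts in 1 of the 2 libraries of replicates 1, 2, 5 and 7, with up to 22.5 CPM in the other. This was not particular to tumours: CKO replicates 1 and 2 of 90 dpi had 0 counts in 1 library and 12.9 and 39.3 CPM in the other.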
